A study of Mus musculus with 8 samples.

Results

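The enzymes described here are the cytosolic and endoplasmic reticulum enzymes of phase II drug metabolism, the UDP-glucuronosyltransferases (UGT), the cytosolic sulfotransferases (SULT) and the soluble glutathione S-transferases (GST). They were chosen by symbol alone, as the genes whose names start with Ugt1, Ugt2 or Ugt3, with Sult and a digit, or with Gst and a letter. Symbols with -ps, the mark of a pseudogene, were left out, as were genes without a usable estimate in every library. Of 48323 symbols, 73 matched, 8 of them were pseudogenes, and 65 were kept: 21 UGT, 21 SULT and 23 GST genes. Of the 65, 44 reached 1 FPKM in at least 2 libraries and were tested, 16 UGT, 7 SULT and 21 GST. FPKM are fragments per unit of transcript length and of library depth, the length-scaled unit in which genes can be compared with each other.

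Liver RNA of wild-type C57BL/6 mice was sequenced after 30 weeks in 1 of 4 conditions, with 2 libraries each. LD-FA stands for a light/dark cycle with filtered air, LD-PM2.5 for a light/dark cycle with fine particulate matter, LL-FA for constant light with filtered air, and LL-PM2.5 for constant light with fine particulate matter. The labels name no transgene and no further treatment, and the sources used here do not give sex, age or the time of day at collection. Whether the 2 libraries of a group are from different animals is not stated, and p-values then cover only the spread between these samples, which may be technical. The design asks what long exposure to polluted air does to the liver, with constant light as a disturbance of the daily clock.

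Phase II enzymes join a small polar group to drugs, pollutants, hormones, bilirubin and bile acids, which makes them easier to excrete. Most UGTs transfer glucuronic acid from UDP-glucuronate, SULTs transfer sulfate from the donor PAPS, and GSTs join the tripeptide glutathione to reactive molecules. In liver many of these genes are known targets of the receptors AhR, CAR and PXR and of the oxidant sensor NRF2. Some follow the time of day through the PAR bZIP factors, and several differ between the sexes.

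The libraries held 22085740 to 31696337 fragments in the listed genes. Several libraries carried RNA of other tissues. Of 10 pancreas acinar markers 5 to 10 were detected in a library, and summed over the 9 tested ones, LD-FA replicate 1 reached 4678 CPM (fragment counts scaled to a common library total by edgeR), LL-PM2.5 replicate 2 reached 460.1 and LD-PM2.5 replicate 1 reached 163.8, against 22.5 to 41.4 in the other 5. The 8 skeletal muscle markers summed to 1131 CPM in LL-FA replicate 1, to 519.7 and 54.7 CPM in the 2 LD-FA libraries, and to at most 2.05 in the rest. The 2 tested adipocyte markers summed to 95.9 CPM in LL-FA replicate 1 and to 18.1 to 24.6 elsewhere. LL-PM2.5 replicate 2 also stood apart in the summed markers of hepatocyte zones. Its pericentral markers (near the central vein) summed to 9627 CPM against 14061 to 15682 in the other 7 libraries. Its periportal markers summed to 19546 CPM against 13266 to 17277. Single markers varied: pericentral Cyp2e1 (6436 CPM) and Glul (636.4) were lowest in this library, but Oat (1617) was highest. Periportal Arg1 (2959 CPM) was highest there, but Cyp2f2 (1654) was lowest. The 7 tested hepatocyte markers summed to 45002 to 57614 CPM, so the tissue label was borne out in every library. In whole tissue, fewer cells of a type and less RNA per cell cannot be told apart.

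No conjugation gene passed the test in any of the 8 comparisons made here. The genes whose values lay furthest apart relative to their spread were Sult5a1, Gsta2, Gsta1, Sult1c2, Ugt2b38, Ugt2b37 and some genes of the mu class of GSTs. Their sequences show what the measurements can and cannot separate. In the 250 bases before its RefSeq start (GRCm38, chr8:123158281-123158530, minus strand), Sult5a1, the gene with the smallest p in the set, held none of the 4 motifs described here. Gsta1 (chr9:78230419-78230668, plus strand) and Gsta2 (chr9:78347146-78347395, minus strand) are near neighbours in a cluster of alpha class genes. Gstm5 (chr3:107895604-107895853, plus strand) lies in the cluster of mu class genes. The windows are given 5′ to 3′ along the gene, with matches to the NRF2 antioxidant core TGACNNNGC and the AhR core GCGTG, on either strand, in capitals.
Sult5a1: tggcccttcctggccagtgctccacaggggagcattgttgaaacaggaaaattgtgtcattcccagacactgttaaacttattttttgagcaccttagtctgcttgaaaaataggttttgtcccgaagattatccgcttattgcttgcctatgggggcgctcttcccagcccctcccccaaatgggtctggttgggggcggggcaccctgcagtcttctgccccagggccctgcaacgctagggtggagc
Gsta1: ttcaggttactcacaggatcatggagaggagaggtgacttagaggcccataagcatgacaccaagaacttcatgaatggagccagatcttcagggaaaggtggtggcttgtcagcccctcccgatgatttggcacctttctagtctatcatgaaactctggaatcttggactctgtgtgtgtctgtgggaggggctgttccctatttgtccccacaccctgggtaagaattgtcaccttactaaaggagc
Gsta2: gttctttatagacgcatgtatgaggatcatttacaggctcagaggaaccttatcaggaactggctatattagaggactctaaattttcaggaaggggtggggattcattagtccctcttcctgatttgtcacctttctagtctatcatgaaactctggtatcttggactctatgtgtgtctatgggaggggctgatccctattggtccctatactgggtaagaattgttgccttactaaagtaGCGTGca
Gstm5: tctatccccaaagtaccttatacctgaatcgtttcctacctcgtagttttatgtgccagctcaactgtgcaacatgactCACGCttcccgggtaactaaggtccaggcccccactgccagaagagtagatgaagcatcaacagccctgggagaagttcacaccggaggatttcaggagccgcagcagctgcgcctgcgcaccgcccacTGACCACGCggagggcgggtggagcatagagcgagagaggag

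In Gsta2 the AhR core began 7 bases before the start. In Gstm5 the NRF2 core at 42 bases before the start overlapped an AhR core on the opposite strand at 38 bases, and a further AhR core lay at 171 bases. Of the 44 tested genes, 39 had such a window. TGACNNNGC was found in 3 of the 39 (7.69%), Gsta3, Gstm5 and Gstm7, against 11.5% of the 27025 genes with a window. Gstm7 had windows at different RefSeq starts. Its match lay in chr3:107931615-107931864 (minus strand), a window that runs into the annotated gene (chr3:107926334-107931817). The Gstm7 window directly before the annotated gene, chr3:107931818-107932067, held no match. GCGTG was found in 9 (23.1%) against 30.9% of all. TTANGTAA, the D-box bound by Dbp and Tef, was found in Sult1a1, Ugt1a9 and Ugt2b1 (7.69%, against 2.44% of all genes). The E-box CACGTG was found in 0 of 39, against 6.86% of all. A match is a description of letters, not of a bound site.

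Many conjugation genes are young duplicates, and their transcripts share long stretches. The coding sequences of Gsta1 and Gsta2 differed at 13 of 666 aligned bases, an identity of 98.0%, and those of Ugt2b37 and Ugt2b38 at 94 of 1590, an identity of 94.1%. Stretches of 120 bases that differ are shown from coding bases 373 to 492 of the Gsta pair and 466 to 585 of the Ugt2b pair, with the bases that differ in capitals, 5 and 20 in number.
Gsta1 coding: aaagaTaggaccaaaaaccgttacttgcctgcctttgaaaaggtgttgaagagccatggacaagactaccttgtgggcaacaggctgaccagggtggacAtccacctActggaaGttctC
Gsta2 coding: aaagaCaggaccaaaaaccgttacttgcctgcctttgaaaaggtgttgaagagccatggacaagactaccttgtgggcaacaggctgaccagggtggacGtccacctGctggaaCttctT
Ugt2b37 coding: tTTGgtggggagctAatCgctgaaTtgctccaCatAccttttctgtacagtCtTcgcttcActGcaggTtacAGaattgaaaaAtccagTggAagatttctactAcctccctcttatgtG
Ugt2b38 coding: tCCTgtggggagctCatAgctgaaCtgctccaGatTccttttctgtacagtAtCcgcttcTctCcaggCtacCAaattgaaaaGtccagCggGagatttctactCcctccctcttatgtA

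Of the 44 tested genes, 14 shared no run of 50 bases with any other gene's transcripts, and 16 shared 10% or more of theirs. For 9 genes the shared part was over 50%. These are 6 genes of the Ugt1a locus, whose transcripts join a first exon of their own to common later exons, the pair Gstp1 and Gstp2, and Gsta1. Gsta1 shared 89.7% of its 50-base runs, most with the predicted gene Gm3776 (82.9%), and Gsta2 shared 47.4%. Ugt2b38 shared 37.4% and Ugt2b37 18.3%, both most with Ugt2b5 (34.15% and 15.23%), the most abundant UGT. Sult5a1, at 1.34%, and Sult1c2, at 0.723%, were nearly free of shared runs. The sources used here do not say how the counting split fragments between such copies, so levels of the sharing genes are uncertain.

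Glutathione transferases were by far the most abundant class. Summed FPKM per library ran from 4429 to 5924 for GST, 1539 to 2785 for UGT and 448 to 685 for SULT. The 65 genes held 1.46% to 1.85% of all listed FPKM. The alpha class gene Gsta3, whose enzyme detoxifies aflatoxin epoxide in mice, had the highest mean at 1504 FPKM (1146 to 1788 over the 8 libraries). It ranked 38 among all symbols. Gstp1, the pi class gene known for higher expression in male than female mouse liver, followed at 1165 FPKM (832 to 1658), and Gstm1, the main mu class gene, at 909 FPKM (771 to 1036). Gstz1, an isomerase of tyrosine breakdown, averaged 409 FPKM (370 to 461) and the theta class gene Gstt1 288 FPKM (247 to 336). The ranges of Gsta3 and Gstp1 overlapped, as did those of Gstp1 and Gstm1, while Gstz1 lay below the 3 leaders in every library. The membrane-bound transferase Mgst1, which the symbol rule does not take, stood higher still at 7724 FPKM (5745 to 8452).

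The remaining GSTs spanned a wide range. Gstk1, a kappa class enzyme of mitochondria and peroxisomes, averaged 140 FPKM, Gsto1, an omega class enzyme that reduces dehydroascorbate, 106, and Gsta4, which clears the lipid peroxidation product hydroxynonenal, 73.2. Gstm6 averaged 80.0 FPKM, Gstm4 52.8, Gsta2 51.4, Gstm7 48.1, Gstt3 47.5, Gstm3 37.4, Gstm2 34.9 and Gstt2 34.1. Gstp3 (15.4 FPKM), Gstm5 (9.84), Gstp2 (3.85), Gsta1 (2.70) and Gstcd (1.44) closed the tested list. Gsto2 at 0.182 FPKM and Gstt4 at 0.0083 were too low to test. The pseudogene entry Gstp-ps, left out by the rule, was listed at a mean of 922.5 FPKM (656 to 1281), and 71.1% of its 50-base runs are shared.

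Among UGTs, Ugt2b5, of the subfamily that handles steroids and bile acids, led with 505 FPKM (342 to 619). Ugt2b36 averaged 345 FPKM (230 to 474), Ugt2b1 310 (231 to 398), Ugt1a1, the bilirubin-conjugating enzyme, 274 (150 to 354), and Ugt2b34 198 (132 to 243). The ranges of these neighbours overlapped. Ugt3a2 (172 FPKM), Ugt2a3 (147) and Ugt2b35 (93.1) followed. The phenol-conjugating Ugt1a6a and Ugt1a6b averaged 60.5 and 55.1 FPKM, Ugt1a9 35.6, Ugt3a1 35.2, Ugt1a5 27.1 and Ugt2b38 16.2. Ugt2b37 (1.72 FPKM) and Ugt1a7c (0.777) were the lowest tested, and Ugt1a10 missed the filter at 0.638.

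Sulfotransferases were few. Sult2a8, which acts on bile acids, averaged 316 FPKM (193 to 407), and Sult1a1, the phenol sulfotransferase, 173 (142 to 203). Sult1d1, active on catecholamines, averaged 45.2 FPKM (28.4 to 61.2), Sult1b1, active on thyroid hormones, 16.6, and Sult5a1 7.86 (2.57 to 11.9). Sult2a7 (2.40 FPKM) and Sult1c2 (1.61) were just above the filter. The other 14 SULT genes were not tested. Sult1c1, Sult2a5, Sult2a6, Sult3a2, Sult6b1 and Sult6b2 were listed at 0 in every library, as were the UGTs Ugt2a1 and Ugt2a2. The female-predominant genes Sult2a1 and Sult3a1 stayed at or below 0.131 FPKM. Xist, the female X-inactivation transcript, was at 0 in 7 libraries and at 0.001417 FPKM in LL-PM2.5 replicate 2, and the Y-linked Ddx3y was at 6.63 to 16.4 FPKM in all 8, the pattern of male mice.

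**Figure D1:**
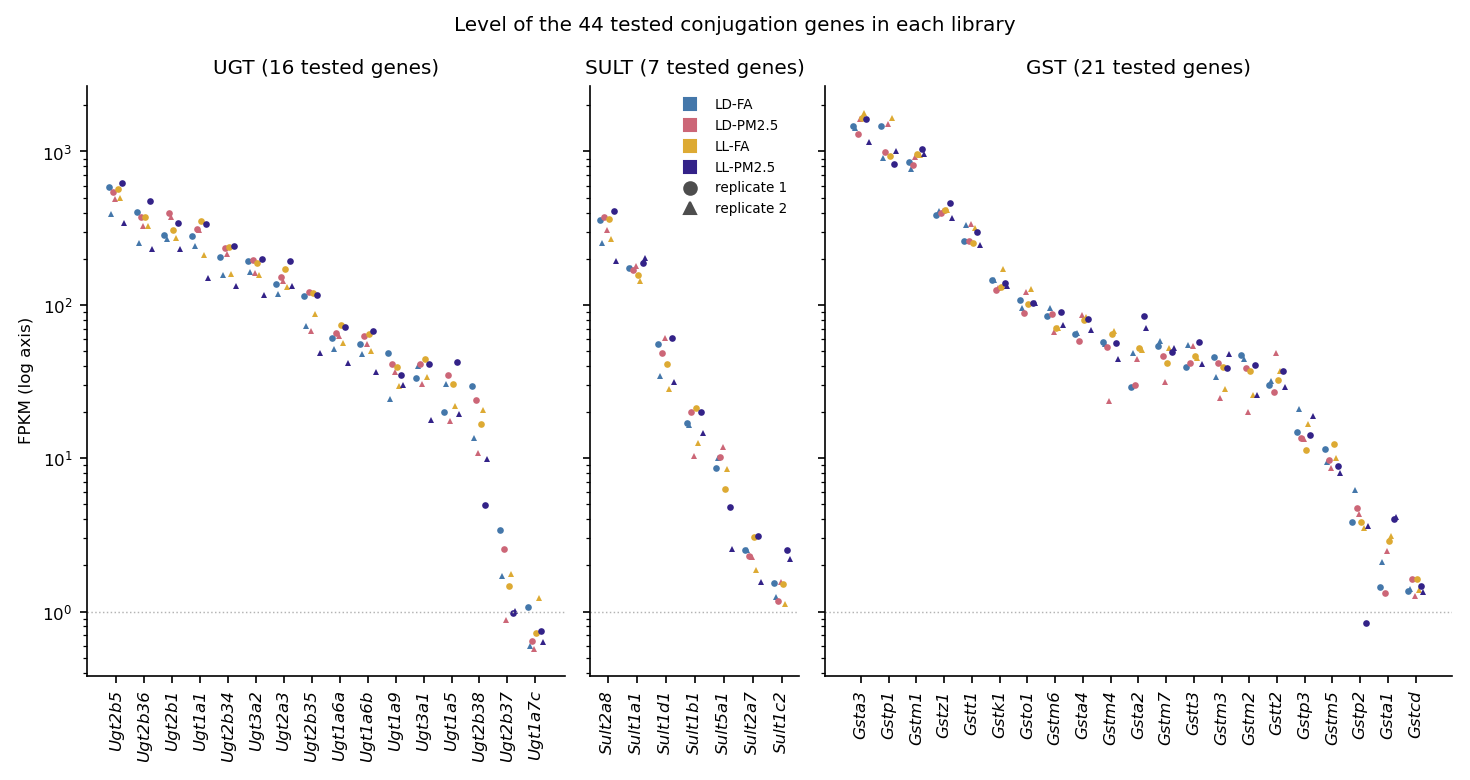
FPKM of the 44 tested conjugation genes in each of the 8 libraries (log axis), ordered by mean within each class, with colour for the group, symbol for the replicate and a dotted line at 1 FPKM. Gsta3, Gstp1 and Gstm1 have means of 1504, 1165 and 909 FPKM, Ugt2b5 leads the UGTs at 505 and Sult2a8 the SULTs at 316.

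Before groups were compared, the unit mattered. The deposited FPKM and the fragments of the same library did not rank libraries alike. The ratio of FPKM to TMM-scaled CPM was higher in all 4 replicate 1 libraries than in all 4 replicate 2 libraries for 35 of the 44 tested genes. This held for 16 of 16 UGT, 7 of 7 SULT and 12 of 21 GST genes, and the reverse for 4 GST genes. Among the 11182 tested genes with a ratio in every library, 49.7% showed it and 17.8% the reverse. The median gap was 0.44 on the log2 scale for UGT, 0.35 for SULT and 0.08 for GST, against 0.08 for all genes. The split runs across the 4 groups, since each has a replicate 1 and a replicate 2. Values below are CPM of fragments, on which the edgeR test runs, with FPKM kept for levels between genes. Which of the units carries the split, and what sets it, was not tested.

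**Figure D2:**
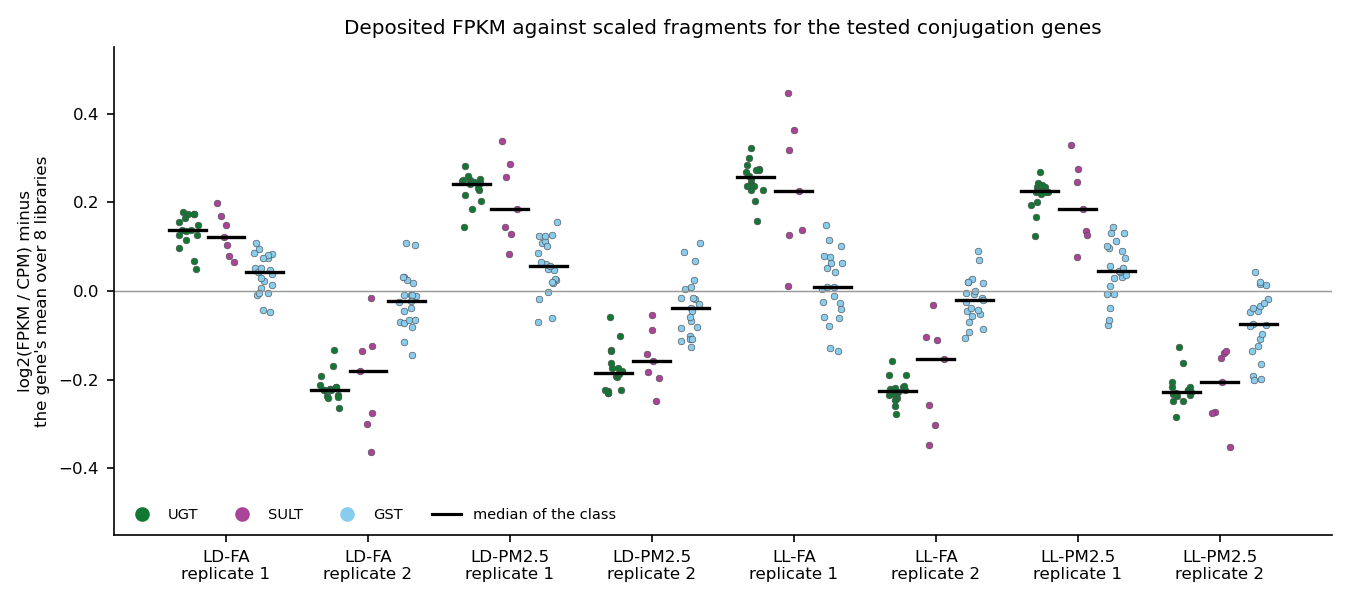
Log2 ratio of FPKM to CPM for each tested conjugation gene in each library, relative to the gene's own mean, by class, with black lines for class medians. For all 16 UGT and all 7 SULT genes the 4 replicate 1 libraries lie above the 4 replicate 2 libraries.

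The abundant GSTs differed in how far their libraries spread. Listing the light/dark groups first, filtered air before PM2.5 and replicate 1 before replicate 2, Gsta3 read 2613, 2708, 2187, 3050, 2791, 3382, 2747 and 2392 CPM. Gstm1 read 1354, 1279, 1309, 1592, 1621, 1555, 1674 and 1633 CPM, so 3 of the 4 light/dark libraries lay below every constant light library, and LD-PM2.5 replicate 2 lay among them. Gstp1 read 1143, 699.9, 764.5, 1180, 746, 1295, 644 and 800.2 CPM, and in LD-FA, LD-PM2.5 and LL-FA its 2 libraries lay further apart than any 2 group means. Gstz1 read 828, 918, 825, 918, 883, 928.5, 969.6 and 852 CPM and Gstt1 278, 319, 279, 326, 287, 310.2, 326 and 247 CPM, with overlap between every 2 groups.

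Of the 5 UGTs highest in CPM, 4 had their lowest value in LL-PM2.5 replicate 2, and Ugt2b1 had its lowest in LL-FA replicate 1 (880.5 CPM, against 906 in LL-PM2.5 replicate 2). In the same order, Ugt2b5 read 1386, 1179, 1201, 1438, 1223, 1514, 1374 and 1036 CPM, and Ugt1a1 724.5, 811, 760.7, 1041, 870.4, 724, 836 and 512 CPM. For both, the lowest library was LL-PM2.5 replicate 2. Ugt2b36 read 936, 774, 818, 959.5, 790.4, 985, 1037 and 699 CPM. Ugt2b34 read 874, 858, 928, 1119, 918, 867, 968.5 and 723.5 CPM. Both were again lowest in LL-PM2.5 replicate 2. Sult2a8 read 1034, 990.4, 1012, 1122, 940.4, 1042, 1108 and 756 CPM, lowest in the same library. Sult1a1 read 325, 382, 312, 400.5, 290.3, 311, 344 and 457 CPM, highest there. Sult1b1 read 38.6, 51.1, 41.6, 29.7, 41.9, 39.2, 41.8 and 44.3 CPM, with its highest library in LD-FA and its lowest in LD-PM2.5.

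Particulate matter in the light/dark cycle, LD-PM2.5 against LD-FA, came with no edgeR call. The smallest p values belonged to the mu class genes Gstm7 and Gstm2. Of the 44 genes, 0 passed the adjusted threshold, as did 0% of all 11316 tested genes (edgeR quasi-likelihood test, Benjamini-Hochberg over all tested genes, threshold 0.05). At an unadjusted p under 0.05 there were 2, both lower under PM2.5, against 11.0% of all genes. DESeq2 and limma on log2(FPKM + 1) also called 0, with 3 and 1 at an unadjusted p under 0.05. Over the 8 comparisons DESeq2 called 33 to 161 of all 11316 genes. Shares of all genes, here and below, are those of edgeR. The unadjusted counts of DESeq2 and limma have no such share beside them. The pairs of libraries did not overlap for 10 genes, 2 above and 8 below, against 49.4% of all genes. Log2 differences were positive for 21 and negative for 23, with a median of -0.01, equal to that of all genes.

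Gstm7 read 87.7 and 98.7 CPM in LD-FA and 74.6 and 55.1 in LD-PM2.5, so both PM2.5 libraries were lower. In constant light it read 70.1 and 88.9 CPM in LL-FA, against 79.2 and 93.0 in LL-PM2.5. Its log2 difference was -0.52 ± 0.19 (SE; edgeR adjusted p = 0.438). Gstm2 read 60.9 and 63.8 CPM against 49.0 and 29.4, at -0.67 ± 0.27 (edgeR adjusted p = 0.445). In LL-PM2.5 it read 52.1 and 37.9 CPM. Gstm4 read 100.4 and 99.8 CPM against 93.0 and 42.9, at -0.56 ± 0.31 (edgeR adjusted p = 0.521), and 116.9 and 122.5 CPM in LL-FA, against 99.0 and 81.3 in LL-PM2.5. Here 1 library sets the size: without LD-PM2.5 replicate 2 the difference of Gstm4 was -0.10, that of Gstm2 -0.34 and that of Gstm7 -0.31. Of the 7 tested mu class genes, 6 were negative, with a median of -0.29, and 4 did not overlap, against 49.4% of all genes. The positive one was Gstm1, by far the most abundant of them, at 0.14 ± 0.15. Ugt2b1 read 907 and 1069 CPM in LD-FA and 1166 and 1395 in LD-PM2.5, both higher under PM2.5, at 0.37 ± 0.18 (edgeR adjusted p = 0.485). In constant light it read 880.5 and 1072 CPM in LL-FA, against 1010 and 906 in LL-PM2.5.

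Constant light in filtered air, LL-FA against LD-FA, came with no edgeR call. With edgeR 0 of the 44 genes passed (0% of all genes), and 0 were at an unadjusted p under 0.05, against 2.74% of all genes. DESeq2 and limma also called 0, each with 1 at an unadjusted p under 0.05. The pairs of libraries did not overlap for 13 genes, 8 above and 5 below, against 30.2% of all genes. All 7 tested SULT genes were negative, with a median of -0.15, while 14 of 21 GST genes were positive, with a median of 0.06. The 4 smallest p values belonged to Gstm2, Gstm6, Gstm1 and Sult1d1. Gstm2 read 48.4 and 36.4 CPM in LL-FA, below both LD-FA libraries (-0.56 ± 0.27). Gstm6 read 113.8 and 133.5 CPM in LD-FA and 99.5 and 99.1 in LL-FA (-0.32 ± 0.15), with 116.3 and 95.2 in LD-PM2.5 and 120.2 and 104.5 in LL-PM2.5. Gstm1 lay higher in both LL-FA libraries (0.27 ± 0.15). Sult1d1 read 173.6 and 160.3 CPM in LD-FA and 109.1 and 130.1 in LL-FA (-0.48 ± 0.28), with 138.5 and 261 in LD-PM2.5 and 175.8 and 144.1 in LL-PM2.5. All 4 had an edgeR adjusted p of 1.

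The estrogen sulfotransferase Sult1e1 was below the filter and was not tested. Its estimated fragments were 40 and 49 (LD-FA), 11 and 16 fragments (LD-PM2.5), 10 and 6 fragments (LL-FA) and 9 and 16 fragments (LL-PM2.5). Both LD-FA libraries were above the other 6. With no filter on low genes, its log2 difference in LL-FA against LD-FA was -2.24 ± 0.58 (edgeR adjusted p = 0.0273), on few fragments. In that setting edgeR called 201 of all 23030 genes, against 0 in the main fit. Its prior degrees of freedom were 76.3, against 3.46 in the main fit.

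The most conjugation genes at an unadjusted p under 0.05 were found where both exposures were set against neither, LL-PM2.5 against LD-FA, and in constant light under PM2.5, LL-PM2.5 against LD-PM2.5. In both, Sult5a1 was lower and Gsta2, Gsta1 and Sult1c2 were higher in LL-PM2.5, none past the test. These comparisons share the LL-PM2.5 libraries, and LD-FA is also the control above, so they are not independent of each other. In LL-PM2.5 against LD-FA, 0 of 44 genes passed with edgeR (0% of all genes), 6 were at an unadjusted p under 0.05, 3 higher and 3 lower, against 6.71% of all genes, and 15 did not overlap, 6 above and 9 below, against 36.3% of all genes. DESeq2 called 1, Sult5a1, against 96 of all 11316 genes. It had 8 at an unadjusted p under 0.05, and limma called 0, with 7. In LL-PM2.5 against LD-PM2.5, 0 of 44 passed with edgeR (0% of all genes), 5 were at an unadjusted p under 0.05, 3 higher and 2 lower, against 9.23% of all genes, and 13 did not overlap, 8 above and 5 below, against 39.3% of all genes. DESeq2 called 2, Sult5a1 and Gsta2, against 141 of all 11316 genes. It had 5 at an unadjusted p under 0.05, and limma called 0, with 6.

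Sult5a1 had the smallest p in both. Its libraries read 12.2 and 14.9 CPM (LD-FA), 14.2 and 18.1 CPM (LD-PM2.5), 9.17 and 12.8 CPM (LL-FA) and 6.67 and 4.15 CPM (LL-PM2.5). Both LL-PM2.5 libraries were below all others. Group means were 13.6 ± 1.91, 16.1 ± 2.79, 11.0 ± 2.53 and 5.41 ± 1.78 CPM (SD, n = 2 each). The log2 difference was -1.57 ± 0.28 against LD-PM2.5 (edgeR adjusted p = 0.367) and -1.32 ± 0.28 against LD-FA (edgeR adjusted p = 0.384). Over the alternatives tried, the first ran from -1.96 to -1.27 and the second from -1.71 to -1.02.

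Gsta2, one of the liver's alpha class genes that respond to AhR and NRF2 ligands, stood higher in LL-PM2.5. It read 33.7 and 62.4 CPM (LD-FA), 34.5 and 57.2 CPM (LD-PM2.5), 59.8 and 63.9 CPM (LL-FA) and 96.6 and 92.8 CPM (LL-PM2.5). The LL-PM2.5 libraries were above the other 6, while the light/dark groups each held 1 low and 1 high library. The log2 difference was 1.05 ± 0.32 against LD-PM2.5 (edgeR adjusted p = 0.486) and 0.98 ± 0.32 against LD-FA (edgeR adjusted p = 0.661). The second was 0.60 with LD-FA replicate 1 and LL-FA replicate 1, the libraries richest in muscle RNA, both left out. Its near copy Gsta1, at a much lower level, read 1.66 and 2.80 CPM (LD-FA), 1.502 and 3.33 CPM (LD-PM2.5), 3.30 and 4.08 CPM (LL-FA) and 4.51 and 5.74 CPM (LL-PM2.5). The LL-PM2.5 libraries were again the highest, at 1.10 ± 0.42 against LD-PM2.5 (edgeR adjusted p = 0.518) and 1.19 ± 0.41 against LD-FA. Leaving out replicate 1 of LD-PM2.5 gave 0.64 for the first, and leaving out its replicate 2 gave 1.76. Since most of its transcript is shared with other genes, the reading of Gsta1 cannot be told apart from that of its copies.

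Sult1c2 also stood higher in LL-PM2.5. It read 4.21 and 3.94 CPM (LD-FA), 3.08 and 4.80 CPM (LD-PM2.5), 3.99 and 3.49 CPM (LL-FA) and 6.63 and 6.98 CPM (LL-PM2.5). The difference was 0.79 ± 0.25 against LD-PM2.5 (edgeR adjusted p = 0.486) and 0.74 ± 0.25 against LD-FA (edgeR adjusted p = 0.681). The related genes Ugt2b38 and Ugt2b37 had the opposite sign. Ugt2b38 read 72.4 and 42.8 CPM (LD-FA), 55.4 and 32.8 CPM (LD-PM2.5), 37.2 and 65.4 CPM (LL-FA) and 11.5 and 31.3 CPM (LL-PM2.5). Its LL-PM2.5 libraries were the lowest, 1 of them by little, at -1.43 ± 0.52 against LD-FA. Ugt2b37 read 8.08 and 5.18 CPM in LD-FA and 2.16 and 3.10 in LL-PM2.5, at -1.33 ± 0.46 (edgeR adjusted p = 0.687). In the other groups it read 5.55 and 2.57 CPM (LD-PM2.5) and 3.07 and 5.49 CPM (LL-FA), which overlap LL-PM2.5.

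**Figure D3:**
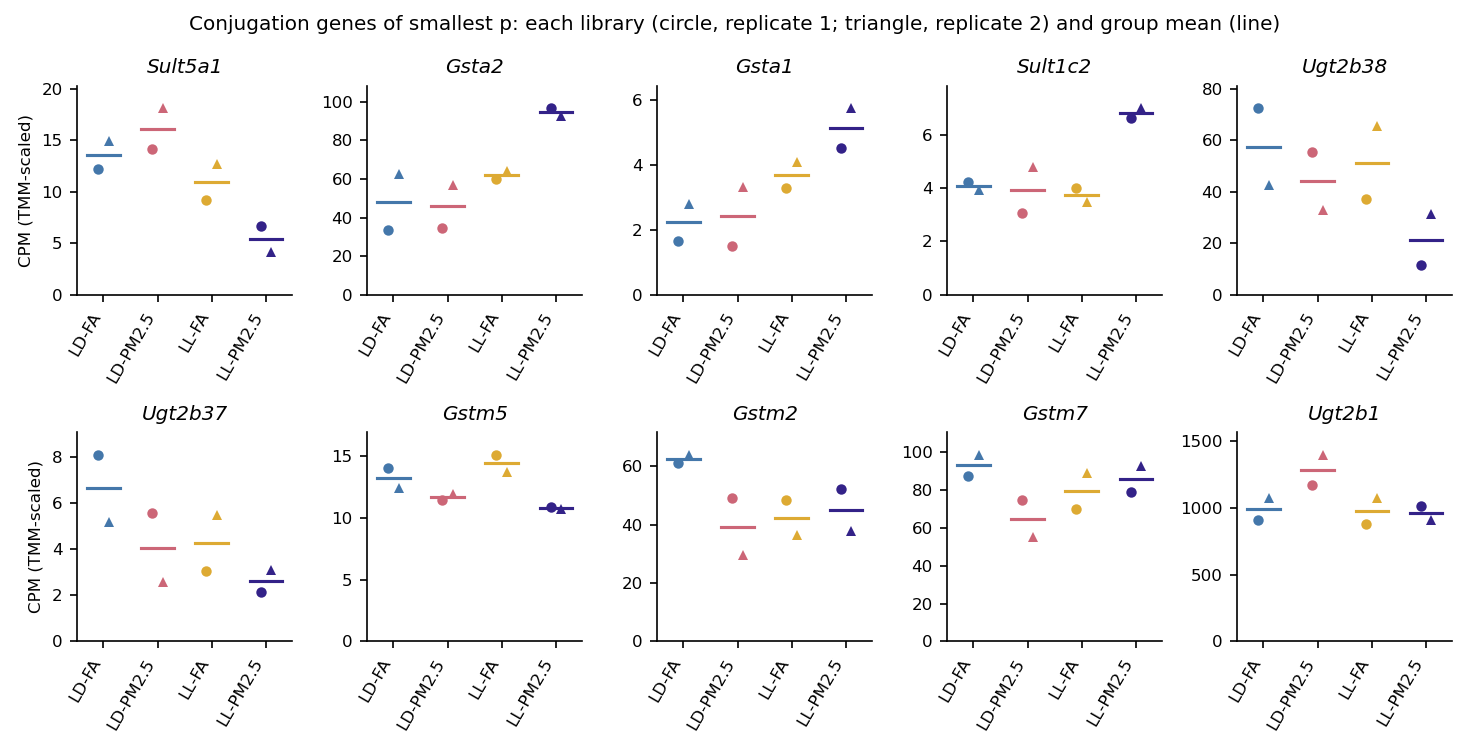
TMM-scaled CPM of 10 genes with the smallest p values in each library of the 4 groups, with circles for replicate 1, triangles for replicate 2 and a line for the group mean. In Sult5a1 the LL-PM2.5 libraries lie lowest, at 6.67 and 4.15 CPM, and in Gsta2 highest, at 96.6 and 92.8 CPM.

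The summed level of male-biased liver genes was lowest in the same 2 libraries, though Elovl3, Hsd3b5, Cyp4a12a and Cyp4a12b each read lowest in LD-PM2.5 replicate 2. The 9 tested genes of a male-biased list chosen for this work summed to 4661 and 3960 CPM in LL-PM2.5 and to 5642 to 7111 CPM in the other 6 libraries. In LL-PM2.5 against LD-FA, 9 of 9 were negative, with a median of -0.64. Of these, 2 were at an unadjusted p under 0.05, against 6.71% of all genes. With edgeR 0 passed the adjusted threshold, while DESeq2 called 1, Elovl3, against 96 of all 11316 genes. The part of the male-biased genes in the values of Sult5a1, Ugt2b37 and Ugt2b38 was not tested.

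Under constant light, particulate matter (LL-PM2.5 against LL-FA) gave lower Sult5a1, Gstm5 and Ugt2b38 and higher Sult1c2 readings, none past the test. With edgeR 0 of 44 passed (0% of all genes), 4 were at an unadjusted p under 0.05, 1 higher and 3 lower, against 4.83% of all genes, and 15 did not overlap, 8 above and 7 below, against 30.0% of all genes. DESeq2 and limma called 0, with 5 and 4 at an unadjusted p under 0.05. Sult5a1 differed by -1.01 ± 0.28, Sult1c2 by 0.86 ± 0.25, Gstm5 by -0.42 ± 0.13 and Ugt2b38 by -1.26 ± 0.52 (edgeR adjusted p = 0.989 for each). Gstm5 read 15.1 and 13.75 CPM in LL-FA and 10.9 and 10.7 CPM in LL-PM2.5, with no overlap. Ugt2b38 depended on a single library, at -0.71 without LL-PM2.5 replicate 1 and -2.16 when replicate 2 was the one left out.

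Averaged over both light regimes, PM2.5 against filtered air gave no edgeR call among the 44 genes, of which Gstm5 had the smallest p. With edgeR it gave 0 of 44 genes past the threshold, against 0.0177% of all genes (2 genes). At an unadjusted p under 0.05 there was 1, Gstm5, lower under PM2.5, a smaller share than the 10.0% of all genes. DESeq2 and limma called 0, with 3 and 1 at that level. Gstm5 read 14.0 and 12.4 CPM in LD-FA and 11.45 and 12.0 in LD-PM2.5, so its 4 PM2.5 libraries lay below its 4 filtered air libraries. The difference was -0.30 ± 0.09 (edgeR adjusted p = 0.425), and ran from -0.34 to -0.22 over the alternatives. Gstm4 was the other of the 2 genes whose 4 PM2.5 libraries lay below the 4 filtered air libraries, against 5.68% of all genes in either direction. Sult1c2 (0.40 ± 0.18), Ugt2b38 (-0.82 ± 0.37) and Ugt2b37 (-0.70 ± 0.32) followed.

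Averaged over both airs, constant light against the light/dark cycle gave 0 of 44 past the threshold with edgeR (0% of all genes) and 3 at an unadjusted p under 0.05, 2 higher and 1 lower, against 5.66% of all genes. DESeq2 called 1, Sult5a1, against 92 of all 11316 genes. It had 6 at an unadjusted p under 0.05, and limma called 0, with 4. Sult5a1 differed by -0.94 ± 0.19 (edgeR adjusted p = 0.394), Gsta2 by 0.71 ± 0.22 (edgeR adjusted p = 0.778), Gsta1 by 0.91 ± 0.29 and Gstm1 by 0.23 ± 0.11. In 0 of the 44 did the 4 constant light libraries lie wholly apart from the 4 light/dark libraries, against 3.18% of all genes. All 4 tested alpha class genes, Gsta1 to Gsta4, were positive, with a median of 0.45, and 16 of 21 GST genes were positive, with a median of 0.06, against 4 of 16 UGT genes, with a median of -0.09. Without LL-PM2.5 replicate 2 the UGT median was 0.05, with 9 of 16 positive.

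The interaction asks whether the PM2.5 difference in constant light departs from that in the light/dark cycle. With edgeR 0 of 44 passed (0% of all genes) and 2 were at an unadjusted p under 0.05, 1 in each direction, against 4.88% of all genes. DESeq2 and limma called 0, with 3 and 1 at that level. Sult5a1 had -1.26 ± 0.38 (edgeR adjusted p = 0.843): its PM2.5 difference was 0.25 in the light/dark cycle and -1.01 in constant light. Sult1c2 had 0.92 ± 0.35, Gstm7 0.64 ± 0.27 and Gstm2 0.75 ± 0.38. Both mu class genes were lower under PM2.5 in the light/dark cycle and near level in constant light (0.12 for Gstm7, 0.09 for Gstm2).

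**Figure D4:**
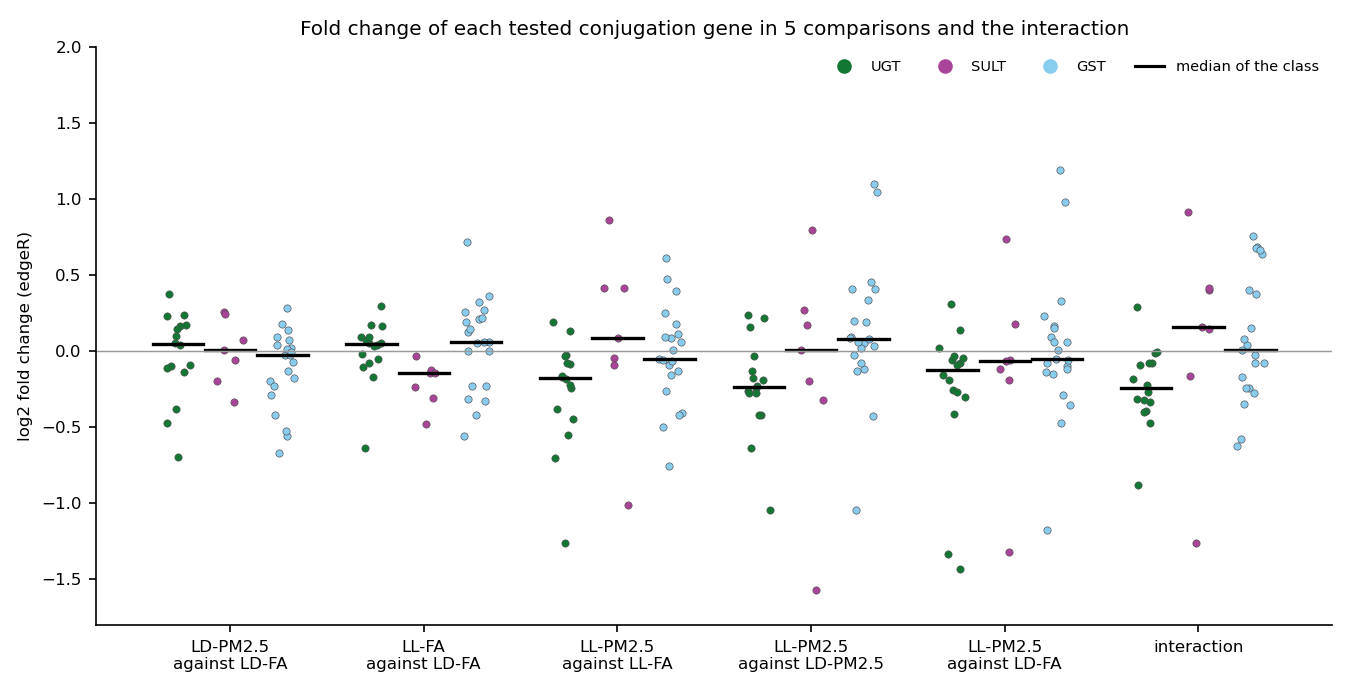
Log2 fold changes (edgeR) of the 44 tested genes in the 5 comparisons between groups and the interaction. Each point is 1 gene, coloured by class, and black lines are class medians. In LL-PM2.5 against LL-FA the UGT median lies at -0.18 and the GST median at -0.05.

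As a class, UGTs stood lower in LL-PM2.5, and this rested on 1 library. In LL-PM2.5 against LL-FA 14 of 16 UGT genes were negative, with a median of -0.18, and in LL-PM2.5 against LD-PM2.5 13 of 16, with a median of -0.23. All 7 Ugt2b genes were negative in both. The Ugt1a genes share later exons, as described above, so the genes counted are not independent readings. Over all genes the medians lay between -0.01 and 0.01 in every comparison. The interaction was negative for 15 of 16 UGT genes, with a median of -0.24. Without LL-PM2.5 replicate 2 the first median became 0.01, with 7 of 16 negative, the second 0.002, with 8 of 16, and the interaction -0.13, with 10 of 16. Without LL-PM2.5 replicate 1 they were -0.40, -0.41 and -0.42.

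Summed over the class, UGTs read 6901 and 6768 CPM (LD-FA), 6925 and 8045 CPM (LD-PM2.5), 6743 and 7366 CPM (LL-FA) and 7379 and 5542 CPM (LL-PM2.5). LL-PM2.5 replicate 2 was the lowest of the 8 libraries for 9 of the 16 genes, and 13 of the 16 lay below their own mean there, with a median offset of -0.31. SULTs read 1590, 1606, 1524, 1839, 1398, 1541, 1686 and 1414 CPM in the same order, and GSTs 7239, 7032, 6289, 8037, 7367, 8602, 7469 and 7002. For SULTs both LD-FA sums were above both LL-FA sums, and for GSTs both were below. LL-PM2.5 replicate 2 is also the library with the lowest pericentral and the highest periportal marker sums and with pancreas RNA. The part of these in its UGT values was not tested. In Sult5a1, Gsta2, Gsta1 and Sult1c2, LL-PM2.5 replicate 1 alone also lay beyond all 6 libraries of the other groups. These genes were picked by small p in these same libraries, which favours that pattern. It is therefore no separate support for them.

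**Figure D5:**
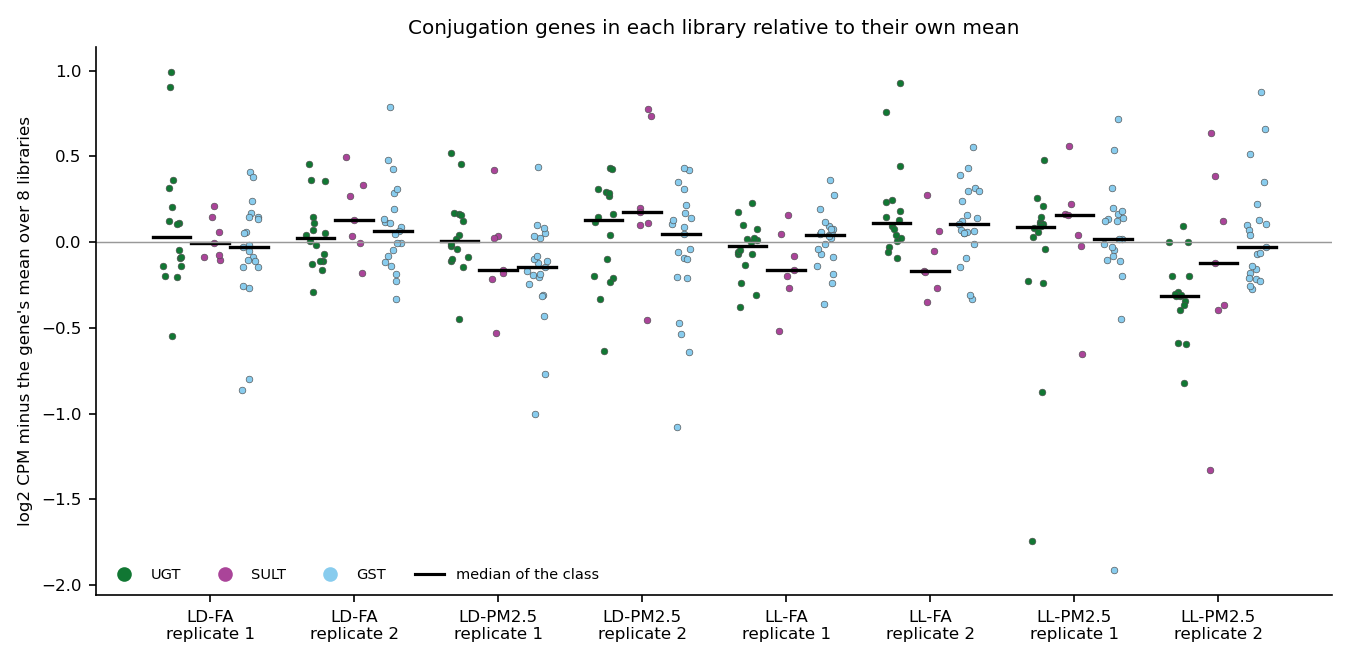
Deviation of each tested conjugation gene from its own mean over the 8 libraries, in log2 CPM, by library and class, with black lines for class medians. In LL-PM2.5 replicate 2, 13 of 16 UGT genes lie below 0, with a median of -0.31.

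The genes that feed, assist and follow conjugation were read from lists chosen for this work. With edgeR 0 members of the lists named below passed in any comparison, and limma called 0 as well. Among the genes DESeq2 called in at least 1 comparison were Mgst3, Slco1a4, Dbp, Tef and Por. UDP-glucuronate supply (6 tested genes, among them Ugdh, which makes the donor) and PAPS supply (7 genes, among them the synthase Papss2) had 0 members at an unadjusted p under 0.05 in any of the 8 comparisons. Summed CPM ran from 894 to 1090 for the first list and from 707 to 885 for the second. Glutathione synthesis and recycling had 12 tested genes, of which 3 were higher and 1 lower at an unadjusted p under 0.05 in LL-PM2.5 against LD-PM2.5, where 9.23% of all genes were at that level. Its rate-limiting enzyme subunit Gclc was at -0.19 ± 0.22 there.

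In the list of membrane-bound transferases and mercapturate steps (10 genes), Mgst3 stood out by light. It read 10.4, 10.2, 9.48 and 10.8 CPM in the 4 light/dark libraries and 17.1, 13.6, 16.0 and 16.0 CPM in the 4 constant light libraries, with no overlap. The light average was 0.62 ± 0.11 (edgeR adjusted p = 0.252). Mgst1 read 5924, 5947, 5609, 5689, 5651, 6436, 5963 and 4540 CPM, lowest in LL-PM2.5 replicate 2. Of other conjugation genes (15) and deconjugating enzymes (9), at most 3 and 1 were at an unadjusted p under 0.05 in any comparison. Over all genes, 2.74% to 11.0% were at that level. Among transporters of conjugates (8), the uptake carrier Slco1a4 read 45.4, 26.1, 27.2, 38.8, 46.4 and 25.5 CPM in the first 6 libraries and 70.6 and 118.8 in LL-PM2.5. Its difference in LL-PM2.5 against LD-PM2.5 was 1.52 ± 0.40 (edgeR adjusted p = 0.43).

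The list of regulators of conjugation genes also held the reductase Por, which is not itself a regulator. The PAR bZIP factors Dbp and Tef, and Por, were higher in both LD-PM2.5 libraries than in both LD-FA libraries. Of 14 tested, 13 were positive in LD-PM2.5 against LD-FA, with a median of 0.47, and 6 were at an unadjusted p under 0.05, all higher, against 11.0% of all genes (767 higher and 473 lower), with 0 past the adjusted threshold with edgeR, while DESeq2 called Dbp, Tef and Por among them. Dbp, a clock output that drives detoxification genes, read 4.87 and 3.24 CPM (LD-FA), 16.1 and 21.4 CPM (LD-PM2.5), 7.60 and 14.2 CPM (LL-FA) and 58.4 and 95.0 CPM (LL-PM2.5). None of the 4 groups overlapped. It differed by 4.24 ± 0.41 in LL-PM2.5 against LD-FA (edgeR adjusted p = 0.0642). Its relative Tef differed by 1.81 ± 0.41 (edgeR adjusted p = 0.414). Por, which supplies electrons to cytochromes P450, read 194 and 137 CPM (LD-FA), 236 and 613 CPM (LD-PM2.5), 260 and 287 CPM (LL-FA) and 366 and 371 CPM (LL-PM2.5). In the same comparison the receptors and sensors Ahr and Nfe2l2 differed by 0.07 ± 0.34 and 0.12 ± 0.18. Of the 3 tested conjugation genes with a D-box in their window, Sult1a1 was at 0.18 ± 0.19 in that comparison, Ugt1a9 at -0.16 ± 0.22 and Ugt2b1 at -0.04 ± 0.18. In LD-PM2.5 against LD-FA, Sult1a1 was at 0.01 ± 0.19, Ugt1a9 at 0.10 ± 0.22 and Ugt2b1 at 0.37 ± 0.18. The part of Dbp and Tef in these values was not tested.

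Of 13 tested targets of xenobiotic receptors and NRF2, 3 were higher and 1 lower at an unadjusted p under 0.05 in LL-PM2.5 against LD-FA, against 6.71% of all genes, and 0 passed with edgeR, DESeq2 or limma. The NRF2 target Nqo1 read 7.15, 8.24, 6.475 and 11.1 CPM in the light/dark libraries and 10.5, 11.3, 12.6 and 11.8 in constant light, which overlap, at 0.49 ± 0.17 for the light average. Cyp1a2, an AhR target of pericentral hepatocytes, was at -0.79 ± 0.27 in LL-PM2.5 against LD-FA. It read 923 and 845 CPM (LD-FA), 678 and 846.5 CPM (LD-PM2.5), 771 and 757 CPM (LL-FA) and 662 and 362 CPM (LL-PM2.5). Its lowest value was in LL-PM2.5 replicate 2, the library with the lowest pericentral sum.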

How the data were processed

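Liver RNA-seq libraries of 4 groups, 2 each, were read from the deposited table of replicates. The submitters' processing notes name STAR, then Cufflinks with Cuffdiff, and build mm10, and the sources used here give no versions, options or annotation. Per the file headers, the authors deposited an estimated count of fragments for each gene and library, and FPKM. Rounding to whole fragments for the tests changed 97.4% of nonzero values by at most 0.01. Of 48432 genes, 47 with a status other than OK (1.07% of fragments) were left out, and 62 were joined to others of the same symbol. Symbols and positions come from GENCODE vM21 (GRCm38), and promoter windows from RefSeq (GRCm38). Coding sequences and shared 50-base runs come from the GENCODE transcripts.

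The 11316 genes that reached 1 FPKM in 2 or more libraries were tested with the quasi-likelihood test of edgeR 4.0.16 (R 4.3.3, TMM) in 1 model of 4 group means with 4 residual and 3.46 prior degrees of freedom, two-sided. Benjamini-Hochberg adjustment covered all tested genes in each of 8 comparisons. SE is the absolute log2 difference over the square root of F, with a median of 0.23 for conjugation genes between groups of 2, which at 22085740 to 31696337 fragments sets the precision. The biological coefficient of variation was 21.4%. Members are named with full values where they are among the 5 of highest mean FPKM in a class, the 4 of smallest p in a comparison, or past the threshold, and genes of other lists where they have up to 3 of the smallest p. Ahr, Nfe2l2, Gclc, Mgst1, Ugt1a9 and Sult1e1 were named after their values were seen. Alternatives were DESeq2 1.42.0, limma 3.58.1, median-of-ratios scaling, other filters, a replicate block, and leaving out libraries. The fit was tested on simulated data. Results of 1 regulator and its motif are not reported here. The members and lists were chosen with earlier results of these data known. Python 3.11.15 and matplotlib 3.10.9 drew the figures.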

Additional observations from a re-analysis of the deposited data

How the results depend on the processing

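The 32 differences refitted were those of the 4 conjugation genes of smallest p in each comparison. They kept their sign under every one of the 16 alternatives that could give a value. As they were picked by p from these same libraries, a kept sign was likely beforehand and is no separate support. Of the refitted values 486 stayed on the same side of the threshold and 17 crossed to an adjusted p under 0.05. Of those that crossed, 13 came with no filter on low genes and 4 with DESeq2. With no filter (23030 genes, prior degrees of freedom 76.3) edgeR called 1 conjugation gene in LD-PM2.5 against LD-FA (Gstm2), 1 in LL-FA against LD-FA (Sult1e1), 2 in LL-PM2.5 against LL-FA (Sult5a1, Ugt2b38), 3 in LL-PM2.5 against LD-PM2.5 (these and Gsta2), 5 in LL-PM2.5 against LD-FA (these, Gsta1 and Ugt2b37), 2 for PM2.5 averaged over light (Gstm4, Ugt2b38), 4 for constant light averaged over air (Gsta1, Gsta2, Sult5a1, Ugt2b38) and 1 for the interaction (Sult5a1). DESeq2 called 2 in LL-PM2.5 against LD-PM2.5, 1 in LL-PM2.5 against LD-FA and 1 for constant light averaged over air, and 0 in the other 5. Over all genes, edgeR with no filter called 201 to 696 per comparison and DESeq2 33 to 161, against 0 to 2. The other alternatives, leaving out each library in turn included, called 0 conjugation genes in every comparison. The median difference over the 44 genes moved by more than 0.0953, the spread between libraries of a group, in 11 of 128 refits, all with an LD-PM2.5 or LL-PM2.5 library left out. Replicate numbers are shared between groups, but the labels do not say that they pair samples, and the deviations of same-numbered libraries correlated across genes at -0.59 to 0.33. With a replicate block 0 conjugation genes were called in any comparison, against 0 to 2 of all 11316 genes. At an unadjusted p under 0.05 there were 2 to 8, with no share of all genes given here to read them against. A group left with 1 library was assumed to vary like the others. Genes under 1 FPKM, such as Sult1e1 with 6 to 49 fragments a library, are limited by depth.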
